A study of Sus scrofa with 6 samples.

Results

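Genes of the contractile apparatus, 7 in all, were followed through arrays of pig muscle. They were the myosin heavy chains MYH7 and MYH4, the myosin binding proteins MYBPC1 and MYBPH, the Z-disc and LIM proteins MYOZ2 and FHL1, and the actin ACTC1. The authors' deposited table of transcripts that differed between the muscles was searched for them by symbol or title. The search gave 8 probe sets for 7 genes, with 2 probe sets for MYBPC1 and 1 for each other gene, out of 23935 non-control probe sets on the array. RNA came from 3 Meishan gilts of one litter, slaughtered at 150 days of age, and was hybridised to 6 Affymetrix porcine GeneChips. The soleus, called SE in the protocol and described there as oxidative, gave 3 arrays from its deep part. The longissimus dorsi, sampled at the last rib and described as fast-twitch and glycolytic, gave the other 3. The pigs were fed to one regimen, and no treatment is given for them. Each sample was undivided tissue from one region of its muscle, so that fibres and all other cells there contribute RNA.

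The sarcomere is the repeating contractile unit of striated muscle, in which myosin thick filaments slide along actin thin filaments that are anchored in the Z-disc. Muscle fibres are classed by the myosin heavy chain they make: type I or slow fibres carry the MYH7 product, whereas type IIb fibres, the fastest, carry the MYH4 product. Soleus muscles of mammals are usually rich in slow fibres and the longissimus of pigs in fast ones. In bulk muscle RNA, fewer fibres of a type and less transcript per fibre cannot be told apart.

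The values are on a log2 scale, and for every probe set the middle of its 6 arrays was put at 0. Differences between muscles can be read from such values, but the level of one gene cannot be set against that of another. The centring also means that, where the muscles did not overlap, the innermost array of each muscle lay at the same distance from 0 on either side. All 8 probe sets had been selected by the authors on the difference between these same arrays, at an unadjusted p under 0.05 and a fold of at least 1.5. Their differences are therefore given as descriptions without a test. In the authors' deposited table their folds ran from 1.51 for MYH4, the member nearest to that limit, to 7.52 for ACTC1. Their p-values in the authors' deposited table ran from 0.00270 for FHL1 to 0.0353 for MYBPH. Probe sets just outside these limits have no gene name here and could not be set beside them.

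ACTC1, MYBPC1, MYOZ2 and FHL1, 4 of the genes with 5 probe sets, had higher means in soleus, and MYBPH, MYH7 and MYH4, 3 genes with 3 probe sets, had lower means. The arrays of the muscles did not overlap in 8 of 8 probe sets, against 14.2% of all probe sets (6.08% higher and 8.11% lower in soleus). The authors' table held 2.29% of the non-control probe sets, 1.35% with higher and 0.944% with lower means in soleus. No member passed an adjusted p under 0.05 in limma, where 2 probe sets (0.00836%) did, and 8 of 8 had an unadjusted p under 0.05, against 8.46% of all, or 5.09% with a difference of at least 1.5-fold as well. A difference of 2-fold or more was reached by 4 of the 8, namely ACTC1, both MYBPC1 probe sets and MYBPH, against 1.41% of all probe sets. As the rule used this contrast, nothing is read from these shares.

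**Figure D1:**
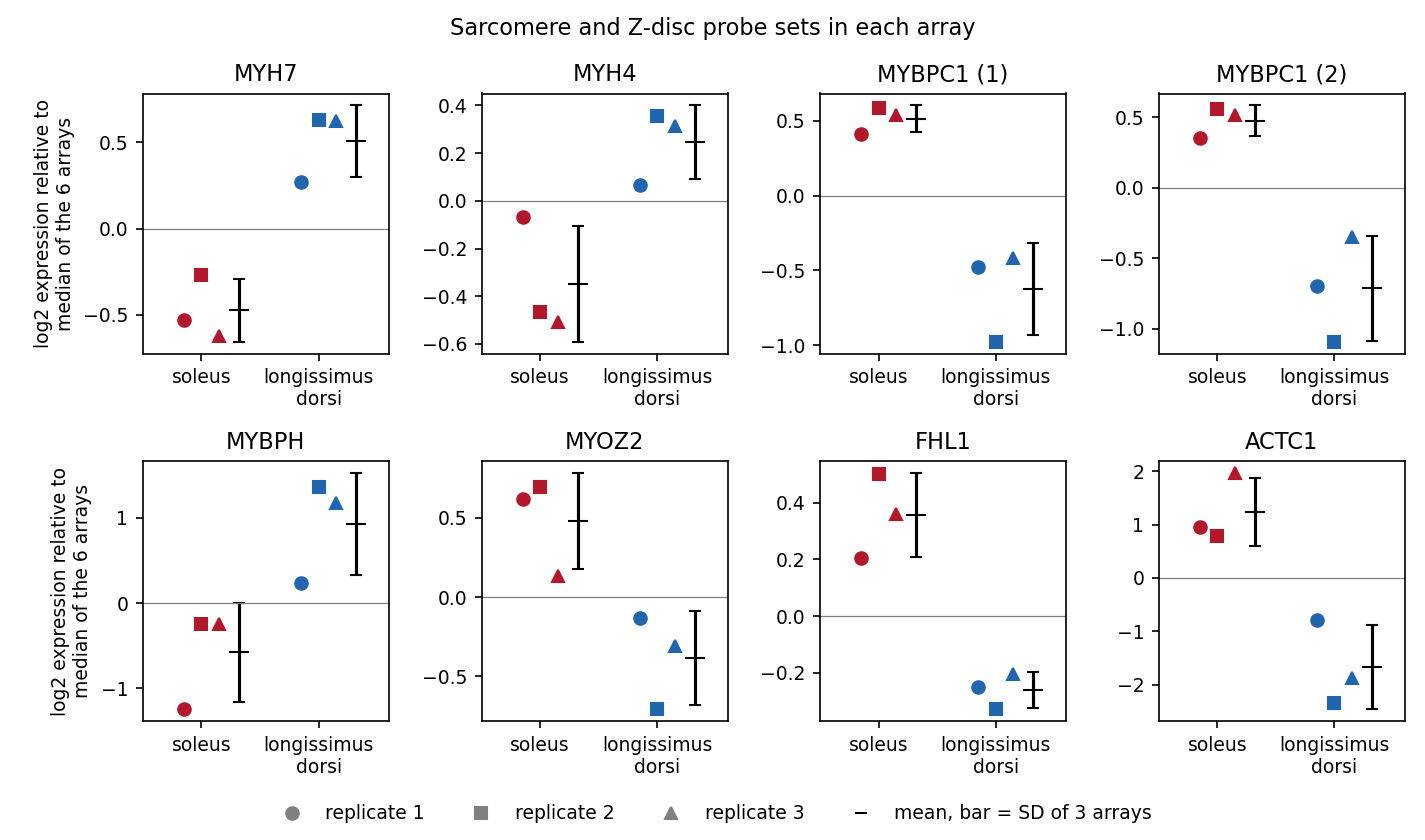
Log2 expression relative to the median of the 6 arrays (vertical axis, scaled per panel) of the 8 probe sets, with soleus in red and longissimus dorsi in blue, one symbol per replicate number and the mean ± SD of 3 arrays in black. ACTC1, both MYBPC1 probe sets, MYOZ2 and FHL1 lie higher in soleus, MYH7, MYH4 and MYBPH lower, and the longissimus dorsi square (replicate 2) is the outermost point of its muscle in every panel.

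Both myosin heavy chain probe sets had lower means in soleus. The MYH7 probe set, titled as moderately similar to a predicted bovine slow myosin heavy chain, had -0.53, -0.27 and -0.62 in soleus replicates 1 to 3, against 0.27, 0.63 and 0.62 in longissimus dorsi. All 3 soleus values lay below all 3 of longissimus dorsi, with 0.54 between the nearest arrays. The means were -0.47 ± 0.18 in soleus and 0.51 ± 0.21 in longissimus dorsi (SD, n = 3 arrays each), a difference of -0.98. The muscle described as oxidative thus had the lower value of a transcript titled as slow. The title rests on a moderate similarity, and whether the probe set reports another heavy chain was not tested.

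MYH4, the type IIb heavy chain, had -0.07, -0.47 and -0.51 in soleus, against 0.07, 0.36 and 0.31 in longissimus dorsi. The muscles came close to each other here, because replicate 1 of soleus and replicate 1 of longissimus dorsi were only 0.13 apart. The means were -0.35 ± 0.24 in soleus and 0.25 ± 0.16 in longissimus dorsi, a difference of -0.59 that was the smallest of the 8 in size.

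Within each array the MYH7 probe set was set against MYH4. The MYH7 value minus the MYH4 value was -0.46, 0.20 and -0.11 in soleus, against 0.20, 0.28 and 0.31 in longissimus dorsi. The highest soleus array all but touched the lowest longissimus dorsi array, and no soleus array had a higher value than any array of longissimus dorsi. Skeletal myosin heavy chains are closely related in sequence, and in the RefSeq gene table of the pig assembly Sscrofa11.1 MYH4 stands beside MYH1 and MYH2. Cross-hybridisation between such relatives was not tested.

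The myosin binding proteins, which sit on the thick filament and regulate its interaction with actin, went in opposite directions. MYBPC1 encodes the slow-type form of myosin binding protein C, which is made in slow and also in fast fibres. Its first probe set had 0.41, 0.59 and 0.54 in soleus, against -0.48, -0.98 and -0.41 in longissimus dorsi. The second had 0.35, 0.56 and 0.52 in soleus, against -0.70, -1.09 and -0.35 in longissimus dorsi. In both, the soleus arrays lay close together and the longissimus dorsi arrays were spread out. The SDs were 0.09 and 0.11 in soleus, against 0.31 and 0.37 in longissimus dorsi.

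The differences of the 2 MYBPC1 probe sets were 1.14 and 1.19, which is 2.20-fold and 2.28-fold. On no array did the pair differ from each other by more than 0.22. Both stem from one cluster of the array's design and carry the same title, so they are not taken as independent evidence. Whether they report one transcript or different forms of it was not tested. The gap between the muscles made up 72.8% of the difference for the first probe set, the largest share among the 8, and 59.2% for the second.

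MYBPH encodes myosin binding protein H, a smaller relative of myosin binding protein C in the A band. It had -1.24, -0.24 and -0.25 in soleus, against 0.24, 1.36 and 1.18 in longissimus dorsi. One array of each muscle stood away from its fellows, soleus replicate 1 at the low end and longissimus dorsi replicate 1, nearer to the other soleus arrays than to its own muscle. Both arrays carry replicate number 1 and lay below the rest of their muscle, but the labels do not say whether a number marks a pig. The means were -0.58 ± 0.58 in soleus and 0.93 ± 0.60 in longissimus dorsi, and the difference of -1.51 (2.84-fold) was the largest of the members with a lower mean in soleus. Without soleus replicate 1 the difference was -1.17.

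MYBPC1 averaged over its probe sets was set against the other thick filament members within each array. Against MYH7 it stood at 0.91, 0.84 and 1.15 in soleus and at -0.86, -1.67 and -1.01 in longissimus dorsi, and the mean of this within-array value was higher by 2.14 in soleus. These 2 transcripts with slow-type titles thus had opposite positions in the muscles. Against MYBPH the figures were 1.63, 0.82 and 0.78 in soleus and -0.83, -2.40 and -1.56 in longissimus dorsi. In both cases the separation follows from the opposite differences of the selected genes and is not a further result. As each probe set was centred on its own median, the sign of such a value does not say which transcript was more abundant.

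ACTC1, the alpha actin of heart muscle that developing skeletal muscle also makes, had the widest separation of the members. Its probe set had 0.96, 0.79 and 1.97 in soleus, against -0.79, -2.34 and -1.88 in longissimus dorsi. The nearest arrays of the muscles were 1.58 apart, more than the whole difference of any other member. The means were 1.24 ± 0.64 in soleus and -1.67 ± 0.80 in longissimus dorsi, a difference of 2.91 or 7.52-fold. Among 23935 probe sets only 3 differed by more in either direction. The name rests on a strong similarity to the rat protein, and striated and smooth muscle actins are nearly alike in sequence, so the part of other actins in this signal was not tested. Without soleus replicate 3 the difference was 2.55, and without longissimus dorsi replicate 1 it was 3.35.

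The Z-disc and LIM proteins were higher in soleus. MYOZ2, calsarcin 1, ties alpha-actinin to the phosphatase calcineurin at the Z-disc and is made in slow fibres and heart. It had 0.62, 0.69 and 0.13 in soleus, against -0.13, -0.71 and -0.31 in longissimus dorsi. Soleus replicate 3 lay nearer to longissimus dorsi replicate 1 than to the other soleus arrays. The means were 0.48 ± 0.30 in soleus and -0.38 ± 0.29 in longissimus dorsi, a difference of 0.86 (1.82-fold), and the gap between the muscles was 30.8% of it.

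FHL1 encodes a LIM-only scaffold protein of the sarcomere, and the file names its isoform C, a shorter splice form. Whether the probe set tells the isoforms apart was not tested. It had 0.20, 0.50 and 0.36 in soleus, against -0.25, -0.33 and -0.20 in longissimus dorsi. The difference was small, 0.62 or 1.53-fold, but the arrays within each muscle were close, with SDs of 0.15 in soleus and 0.06 in longissimus dorsi. Its SD averaged over the muscles, 0.11, was the lowest of the 8, and the highest was that of ACTC1, 0.72.

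**Figure D2:**
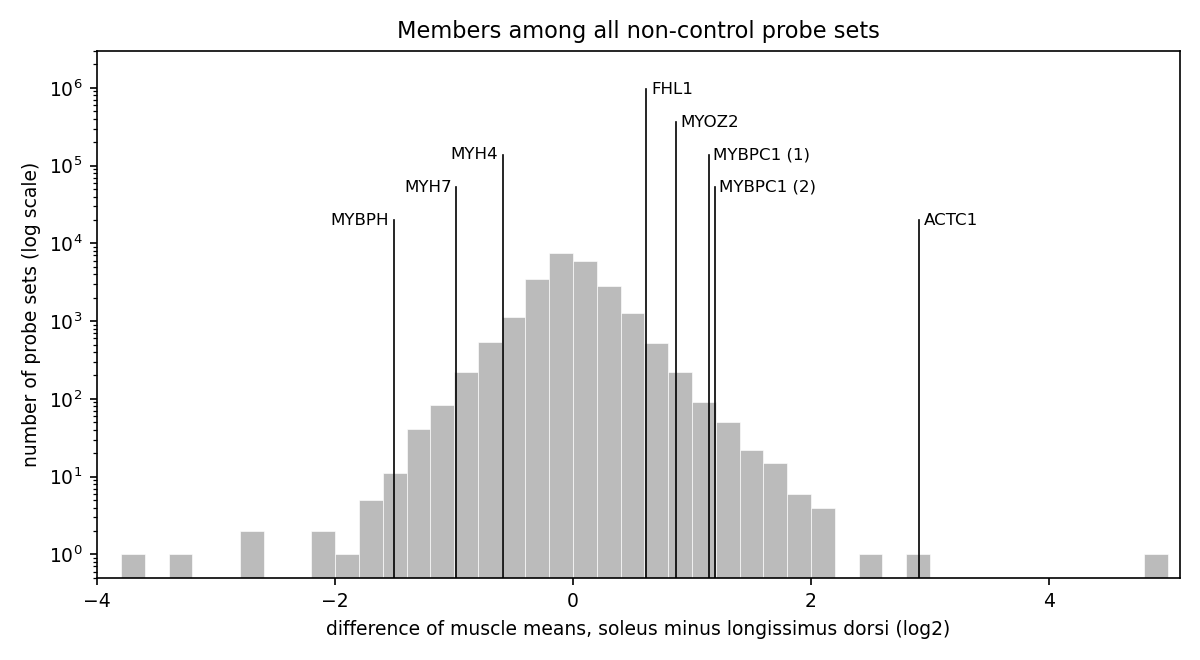
Number of non-control probe sets (log scale) by the difference of muscle means in bins of 0.2 (log2, soleus minus longissimus dorsi), with a labelled line for each member whose height carries no value. ACTC1 at 2.91 stands in the far right tail, MYBPH at -1.51 in the left tail, and MYH4 at -0.59 and FHL1 at 0.62 on the shoulders of the distribution.

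The members were placed among all probe sets by the size of their difference. The median absolute difference was 1.06 over the 8 members and 0.17 over all probe sets, and the signed medians were 0.74 and -0.03. The members were kept for a fold of at least 1.5, so nothing is read from these medians or from the ranks. The signed median mixes selected members of both directions and counts both MYBPC1 probe sets. Ranked by absolute difference among the 23935 probe sets, ACTC1 came 4th, MYBPH 55th, the MYBPC1 probe sets 168th and 208th, MYH7 366th, MYOZ2 612th, FHL1 1735th and MYH4 1890th. A difference at least as far in the same direction was shown by 0.0627% of probe sets for MYBPH and by 3.87% for MYH4. The median SD within muscles was 0.25 for the members, whose values ran from 0.11 to 0.72, and 0.24 for all probe sets. As the authors' p-value also depends on this spread, nothing is read from these medians either.

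One longissimus dorsi array was the outermost of its muscle for every member. Replicate 2 was the array farthest from soleus in 8 of 8 member probe sets, both for members that were higher and for members that were lower in soleus. Among the other 541 probe sets of the authors' table this array was the farthest in 206 (38.1%), and among the other 3387 probe sets whose muscles did not overlap in 1106 (32.7%). Longissimus dorsi replicate 1 was the nearest to soleus in 5 of the 8 members, namely MYH7, MYH4, MYBPH, MYOZ2 and ACTC1, and in 220 of the other 541 (40.7%). With each array centred on its own median the count for replicate 2 was 7 of 8, the exception being MYH7, and with quantile normalization it was 8. Replicate 2 was also the farthest in 7 of 9 probe sets of 7 further muscle genes of the authors' table, those of ACTN2, triadin, ankyrin 1, sarcolemma associated protein and popeye protein 3, and not in those of PDLIM7 and syntrophin beta 1, all but ACTN2 and PDLIM7 being chosen after their values were seen. This position was noticed in these data and is a description without a test, and the MYBPC1 probe sets count as 1 gene.

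**Figure D3:**
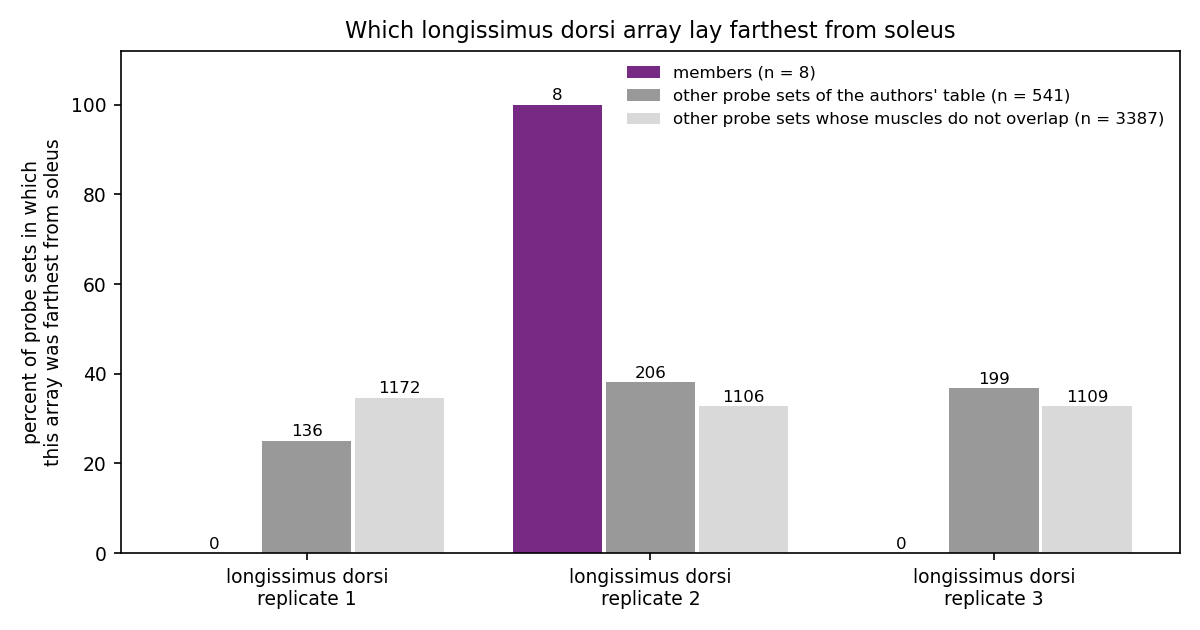
Percent of probe sets in which each longissimus dorsi array was the one of its muscle farthest from soleus, for the members (purple), the other probe sets of the authors' table (dark grey) and the other probe sets with no overlap between muscles (light grey), with the number of probe sets above each bar. All 8 members fall to replicate 2, whereas the 541 and the 3387 others are spread over the 3 arrays. Of 9 probe sets of further muscle genes, not drawn here, 7 also fall to replicate 2. All of these genes but ACTN2 and PDLIM7 were chosen after their values were seen.

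The mean of the 8 members, each turned so that positive means towards soleus, was 0.55, 0.51 and 0.61 in soleus replicates 1 to 3 and -0.37, -0.97 and -0.66 in those of longissimus dorsi. In this mean the soleus arrays lay close together and the longissimus dorsi arrays were spread out. Single members did not all show this. For MYH4, MYOZ2 and FHL1 the SD was larger in soleus (0.24, 0.30 and 0.15) than in longissimus dorsi (0.16, 0.29 and 0.06). For the other members it was smaller in soleus, though only slightly for MYBPH and MYH7. Soleus replicate 3 stood apart from the series: its values over all probe sets had an SD of 0.50, and those of the 5 remaining arrays had SDs between 0.24 and 0.31. It was the soleus array farthest from longissimus dorsi in 3 of the 8 members, MYH7, MYH4 and ACTC1, against 347 (64.1%) of the other 541 probe sets of the authors' table. Without it the differences were 2.55 for ACTC1, 1.13 and 1.17 for MYBPC1, 1.04 for MYOZ2 and 0.61 for FHL1. For the members lower in soleus they were -0.51 for MYH4, -0.91 for MYH7 and -1.67 for MYBPH.

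**Figure D4:**
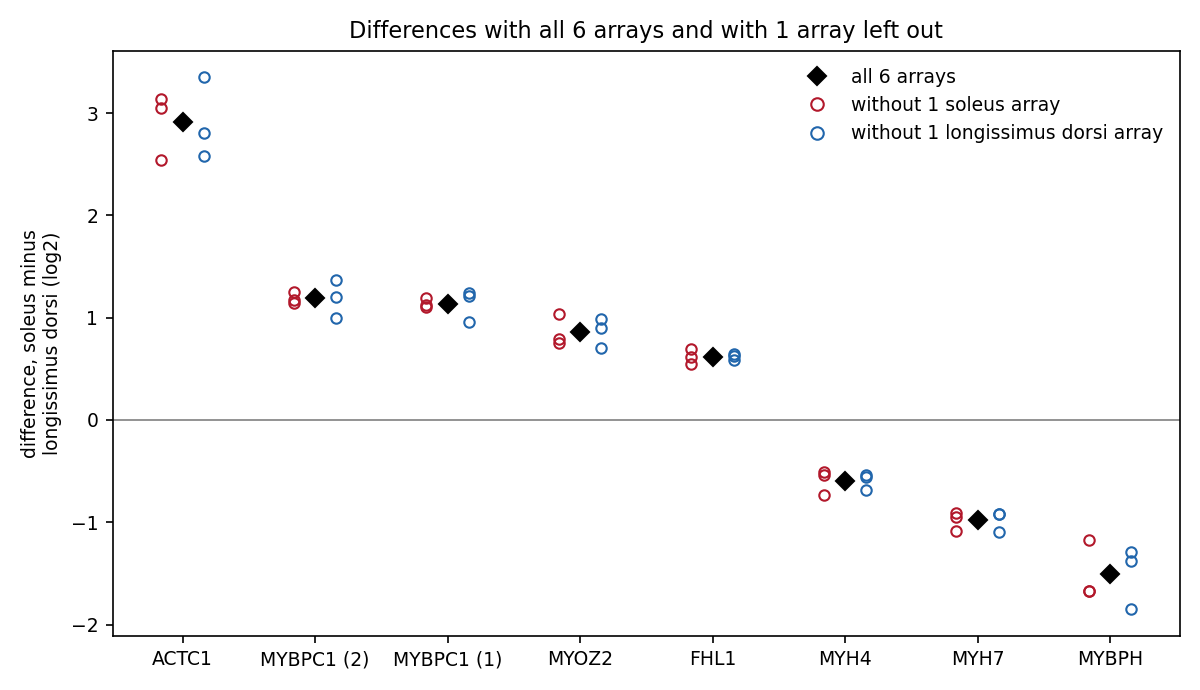
Difference of muscle means (log2, soleus minus longissimus dorsi) of each member with all 6 arrays (black diamonds) and with 1 soleus array (red) or 1 longissimus dorsi array (blue) left out. ACTC1 ran from 2.55 to 3.35 and MYBPH from -1.85 to -1.17, the widest ranges, and FHL1 from 0.54 to 0.69.

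Once the muscle means were taken away, the likeness of the members varied from pair to pair. Over the 28 pairs of member probe sets, the correlation of their 6 deviations, turned towards soleus, had a median of 0.31 and ran from -0.48 to 0.94. The highest was that of the MYBPC1 pair. MYH7 and ACTC1 followed at 0.89, and MYBPH and FHL1 had the lowest value. Among the pairs of the other 541 probe sets of the authors' table the median was 0.21. After quantile normalization the medians were 0.52 for the members and 0.0745 for the others. All pairs share the same 6 arrays, and no p is given.

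For each gene, the 352 other named probe sets of the authors' table were searched for the profile most like it, by Pearson r over the 6 arrays. All were kept for differing between the muscles, so high values are built in. The closest to ACTC1 were the transcript titled T-cell lymphoma invasion and metastasis 1 (0.995) and fibromodulin (0.993), a collagen-binding proteoglycan. The closest to MYOZ2 was heme oxygenase 1 (0.991), followed by RAP2C (0.969), a small GTPase. Glypican 4, a cell surface proteoglycan, was the closest to MYBPC1 (0.986) and the second closest to FHL1 (0.973), after the transmembrane prostate androgen induced transcript (0.984), and RAP2C was the second for MYBPC1 (0.979).

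Those most like MYH4 were the AU RNA-binding enoyl-CoA hydratase (0.989) and interleukin 15 (0.981). For MYH7 they were protein tyrosine phosphatase 4a2 (0.982) and the phosphatidylinositol glycan class C transcript (0.981). Syntrophin beta 1 (0.941), an adaptor of the dystrophin complex, and the water and glycerol channel aquaporin 3 (0.922) were nearest to MYBPH, whose profile had the weakest matches of the 7 genes.

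Of a wider set of 72 sarcomere, Z-disc and fibre-type genes in 5 lists, 9 were named in the authors' table, the 7 members and 2 more of the Z-disc list. Of the 15 genes of the slow fibre list, MYBPC1 and MYOZ2 had higher means in soleus and MYH7 a lower one. MYH4 alone was named of the 17 genes of the fast list, and MYBPH and ACTC1 alone of the 11 of the shared thick filament list and of the 10 of the developmental and cardiac list. Of the 20 of the Z-disc and LIM list 3 were named, FHL1, ACTN2 and PDLIM7, all with higher means in soleus. None of the 9 passed an adjusted p under 0.05 in limma, and all 9 had an unadjusted p under 0.05, as genes kept for their difference. The other genes of these lists have no name here and were not analysed.

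ACTN2, the sarcomeric alpha-actinin that cross-links actin filaments at the Z-disc and binds calsarcins, had 0.15, 0.89 and 0.83 in soleus, against -0.15, -0.65 and -0.63 in longissimus dorsi. Replicate 1 of each muscle lay nearest to the other muscle, and the difference was 1.10 (2.14-fold). PDLIM7, a PDZ and LIM domain protein that binds actin filaments, had 0.52, 0.32 and 0.20 in soleus, against -0.37, -0.20 and -0.88 in longissimus dorsi. Its difference was 0.83 (1.78-fold), and here longissimus dorsi replicate 3 was the farthest from soleus.

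Markers of other cells that were named in the authors' table stood beside these values as follows. Of 6 smooth muscle and pericyte markers 2 were named, CNN1 (0.75) and MYH11 (1.45), both with higher means in soleus, and their mean value ranged from 0.26 to 1.16 in soleus and from -0.69 to -0.30 in longissimus dorsi. Of 9 fibroblast and tendon markers 6 were named, COL1A1, COL1A2, TNC, FMOD, COMP and THBS4, and their 8 probe sets had means higher in soleus by 0.59 to 1.82. Their mean value, with probe sets averaged per gene first, ranged from 0.47 to 0.75 in soleus and from -0.65 to -0.30 in longissimus dorsi. LAPTM5, 1 of 4 leukocyte markers, differed by 0.65, and myelin basic protein, 1 of 4 nerve and Schwann cell markers, by -0.91. No gene was named from the other 5 marker lists, those of muscle fibres, satellite cells or regenerating fibres, endothelium, fat and blood. The labelled tissue could therefore not be set against fibre markers outside the members. The part of other cells in the values of ACTC1 and the other members was not tested.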

How the data were processed

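RNA of 2 muscles of 3 littermate pigs was hybridised to Affymetrix porcine GeneChips. MAS5, version 2.3.1, is listed in the submitters' processing notes without its use, and how probes were summarised and arrays scaled is not given in the sources used here. Values as deposited are log2 expression, found from the values to be centred on each probe set's median over the 6 arrays (within 5e-07), so signal over background is unknown. The authors' table gives an unpaired test's p-value, per the file headers, and, as deposited, a fold as a linear ratio of the muscle means. It gives no adjustment for multiple tests.

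After leaving out 188 control probe sets, all others were fitted with limma 3.58.1 (R 4.3.3) for soleus minus longissimus dorsi, p-values being adjusted after Benjamini-Hochberg and read at 0.05. The fit gives only the background. It was tested on simulated data with independent normal noise, in which 200 probe sets were changed by log2 1 to 4. There 54% of true log2 changes of 1 and 88% of those of 2 passed the adjusted threshold. A change near the size of most members' differences could thus often be missed. The simulation held no pairing by pig and no array with a wider spread, such as soleus replicate 3. The adjusted threshold is harder to pass where fewer probe sets truly change. In the real fit only 2 passed, so the simulated shares may be too high for these arrays. Means, SDs and correlations were computed in Python 3.11.15 with pandas 2.3.3. Members, lists and markers were chosen with earlier results of these data known. Genes named are the members, further list genes of the authors' table and, per member, the 2 closest profiles, with marker genes of the authors' table. The genes of the closing observations, syntrophin beta 1 among them, were chosen after their values were seen. FHL1 and MYOZ2 were matched through the pig RefSeq gene table and MYH7, MYBPC1 and ACTC1 by title. Probe sets of member genes outside the authors' table have no name here and were not analysed. The labels call the samples biological replicates of littermates, and n counts arrays.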

Additional observations from a re-analysis of the deposited data

How the results depend on the processing

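With the replicate number of the labels as a block, the count of probe sets past the adjusted threshold was 7 in place of 2, and the count past an unadjusted p under 0.05 and 1.5-fold was 1688 in place of 1219. The first was 6 with quantile normalization. It was 10 when limma's prior variance followed the mean value, which after centring by probe set does not track expression level. Leaving out 1 array at a time gave from 1 (without longissimus dorsi replicate 1) to 4 (without soleus replicate 3). The second ran from 797 (without longissimus dorsi replicate 2) to 2501 (without soleus replicate 1), and was 549 with the authors' unpaired test. The causes were not tested. None of the 8 members passed the adjusted threshold in any of these limma fits. From 6 to 8 of them stayed past the unadjusted p and fold limits. Their lowest count, 6, came without longissimus dorsi replicate 2 and without soleus replicate 2, where 797 and 1575 of all 23935 probe sets passed. Nothing in the labels ties a replicate number to a pig, so the numbers were not taken as pairs. Correlations between same-numbered samples, taken on deviations from the muscle means, were -0.14, 0.11 and 0.26. They cannot decide whether the numbers mark pigs, since each muscle mean rests on only 3 arrays. The 6 arrays came from 3 pigs, so pairing by pig is possible, and the main fit leaves it out. The block leaves each member's difference as it is but changes its standard error. That went from 0.37 to 0.18 for MYBPH and from 0.44 to 0.36 for ACTC1, and was larger with the block for the other members. Over 10 alternatives, all 80 member differences kept their sign and moved by less than the SD within muscles. This says little, since the members were chosen on this contrast and most of the outcome was fixed in advance. As the muscles did not overlap, leaving out 1 array or taking medians could not turn a sign. Leaving out 1 of 3 arrays also moves a muscle mean by less than its SD, and the block moves no difference. The median over the members, 0.74, was 0.62 with 1 value per gene and between 0.64 and 0.83 with an array left out. The median correlation of deviations, 0.31, was 0.52 after quantile normalization. Alternatives for the order of the longissimus dorsi arrays, for member counts and for the deviations were chosen after seeing the data. A test of members outside the authors' table was not run, since no names are given there. Centring hides which values lie near background.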

Other observations

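Beside the sarcomere, the authors' table named muscle membrane and sarcoplasmic reticulum transcripts, which were chosen here after their values were seen and have no test. Triadin, which holds calsequestrin at the calcium release channel, had -0.23, -0.22 and -0.54 in soleus, against 0.22, 0.56 and 0.47 in longissimus dorsi, a difference of -0.74. Longissimus dorsi replicate 2 was again the array farthest from soleus. Ankyrin 1, which has a small muscle form that ties the reticulum to the sarcomere, differed by -0.60, and syntrophin beta 1 by -0.74. The popeye protein 3 transcript, of a family of membrane proteins that bind cyclic AMP, had 2 probe sets at -0.83 and -1.01. Sarcolemma associated protein ran the other way, with 2 probe sets at 0.91 and 0.97, and its second probe set had 0.83, 1.13 and 0.18 in soleus, against -0.18, -0.32 and -0.27 in longissimus dorsi. All 5 genes had been kept for differing between these arrays.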
